A study of Fukomys damarensis and Heterocephalus glaber and Cavia porcellus with 28 samples.

Results

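Liver gene expression was compared between the Damaraland mole-rat (Fukomys damarensis), a long-lived social rodent that lives underground in southern Africa, and the guinea pig (Cavia porcellus), a surface-living herbivore of the same rodent suborder. The comparison covered the genes of the liver table whose mean over the 8 libraries of these species lay at least 1 unit above the table's lowest value, which kept 10848 of 13928 genes. The 12 genes encoded by mitochondrial DNA, whose symbols start with mt-, were set apart, and 3068 genes fell under the rule. Snai1 and Spag8 stood just inside the line of 5.28926 with means of 5.29367 and 5.28945, and Hoxc5 and Sertad4 just outside it with 5.28881 and 5.28766.

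The study sequenced total RNA, depleted of ribosomal RNA, from frozen heart and liver of 4 rodent species. The labels give no treatment, strain or genetic change for any animal. The Damaraland livers came from 5 animals, of which replicates 1 to 3 were males labelled 36 months old, replicate 4 was a female of 48 months and replicate 5 a male of 48 months. The guinea pig livers came from 3 males of 2.3 months. Species and age therefore differ together between the groups and cannot be told apart, while all animals but replicate 4 were male. The animal of replicate 3 is labelled 36 months in liver and 48 months in heart. Livers of 4 male naked mole-rats of 13 to 17 months and of 2 male mice of 2 months entered the same model and are given beside single genes as values.

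The liver stores and releases glucose, makes fatty acids and cholesterol and exports them in lipoproteins, converts ammonia to urea, makes bile acids from cholesterol and secretes most plasma proteins. Most of this work is done by hepatocytes, whose enzyme content varies along the blood flow from the portal to the central vein. Synthesis of lipids is switched on by SREBP transcription factors, which the INSIG proteins hold back when sterols are abundant. Guinea pigs, like humans, cannot make ascorbate and need it in the diet.

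Levels are in log2-like units, as the authors deposited them after a variance-stabilising transform that compresses low values: in liver a 2-fold change from 10 scaled reads moved the value by 0.39, and from 1000 by 0.97. Scaled reads are the reads of a gene divided by the library's size factor. No correction for gene length was made, so a difference between species also carries any difference in the length of the transcript counted. A difference is the Damaraland mean minus the guinea pig mean, and its error is the standard error of the limma model. Called genes are those with a Benjamini-Hochberg adjusted p under 0.05 whose species means lie 1 unit or more apart. No label says that the animals of a species were unrelated, and the p-values measure the spread between animals within a species, pooled over the 4 species.

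The 8 libraries held 11704633 to 18044619 reads in the Damaraland mole-rat and 13945522 to 21467939 in the guinea pig. The rank correlation of gene levels between libraries was on average 0.971 within the Damaraland mole-rat, 0.969 within the guinea pig and 0.718 between them, as a description over genes. Damaraland replicate 5 and guinea pig replicate 2 stood farthest from their groups, with 202 and 213 genes more than 1 unit beyond every other library of the group. Among the 9 hepatocyte markers tested only Cps1 was called (-1.02), or 11.1% beside 36.9% over all genes. Alb, the albumin gene, read 20.50, 20.72, 20.51, 20.87 and 20.42 in the Damaraland libraries and 20.30, 19.31 and 20.08 in the guinea pig libraries, a difference of 0.71 ± 0.38 that did not pass the test (limma adjusted p = 0.112). None of the 5 heart muscle markers tested was called by limma or voom, beside 36.9% called by limma over all genes. In limma 1 of them had an unadjusted p under 0.05. However, 2 were called higher without guinea pig replicate 1 and 1 without Damaraland replicate 3. None of the pancreas markers passed the rule on low values.

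Of the 10848 genes, 4004 were called, or 36.9%. In the Damaraland liver 2137 were higher (19.7% of the genes tested) and 1867 were lower (17.2%). When both species means had to lie at least 1 above the table's lowest value, 3261 of 9875 genes were called. Of these, 1674 were higher and 1587 lower. Without the size threshold 7161 genes passed at an adjusted p under 0.05. The difference reached 2 units in 754 genes called higher and 613 called lower, and 5 units in 47 and 33. The median difference over all genes was 0.04 and the median absolute difference 0.71, while the median SD within a group was 0.23 in both species. All libraries of one species lay beyond all of the other in 3919 of the called genes, and in 60.6% of all genes tested (31.9% with the Damaraland mole-rat higher and 28.8% with it lower). With genes split into 4 equal groups by mean level, 43.6% were called in the lowest group and 31.3% in the highest. Without the only female 4024 genes were called, 3910 of them among the 4004. In whole liver, fewer cells of a type and less RNA per cell cannot be told apart.

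**Figure D1:**
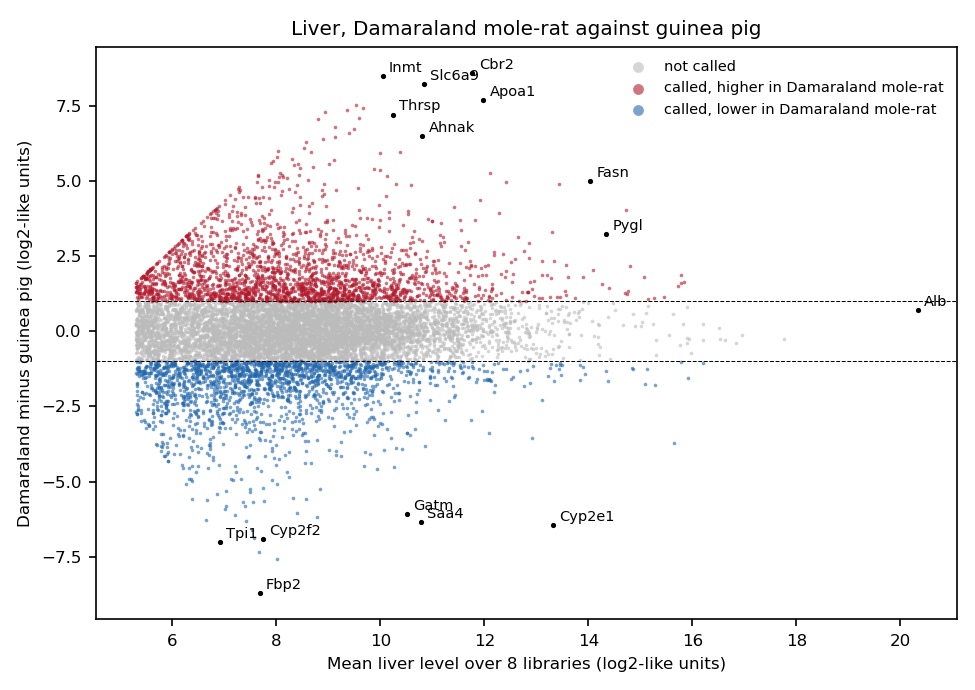
Difference between Damaraland mole-rat and guinea pig liver (vertical axis, log2-like units) against the mean level over the 8 libraries (horizontal axis), with a point for each of the 10848 genes. Red and blue points are called higher and lower in the Damaraland mole-rat, grey points are not called, dashed lines mark a difference of 1, and named genes include Cbr2 at 8.58 and Fbp2 at -8.70.

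Genes of fatty acid and cholesterol synthesis were higher in the Damaraland liver. Of 28 tested, 18 were called higher and 2 lower, with a median difference of 1.81, against 19.7% called higher, 17.2% called lower and a median of 0.04 over all genes. The reads of the whole list summed to 194379 to 252821 scaled reads per library in the Damaraland mole-rat and to 42619 to 49601 in the guinea pig. The groups did not overlap in this sum. The count called lower was 1 without Damaraland replicate 1, Damaraland replicate 4 or guinea pig replicate 2.

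Thrsp, which encodes a regulator of fatty acid synthesis, read 13.50, 12.53, 13.60, 12.26 and 12.81 in the Damaraland libraries and 5.87, 6.09 and 5.24 in the guinea pig libraries. Its lowest Damaraland library was more than 6 units above its highest guinea pig library, and the difference was 7.20 ± 0.32 (limma adjusted p = 4.7e-12). Me1, the cytosolic malic enzyme that supplies NADPH for lipid synthesis, read 12.83, 11.75, 12.70, 12.30 and 11.67 in the Damaraland libraries and 5.14, 5.21 and 5.09 in the guinea pig libraries, with 9 to 10 reads per guinea pig library. The difference in Me1 was 7.10 ± 0.24 (limma adjusted p = 1.7e-13). Fasn, the fatty acid synthase itself, read 16.23, 15.86, 15.94, 15.20 and 16.26 in the Damaraland libraries and 10.94, 11.996 and 9.82 in the guinea pig libraries. Every Damaraland library of Fasn was higher than every guinea pig library, and the guinea pig libraries spread over more than 2 units. The difference was 4.98 ± 0.41 (limma adjusted p = 1.3e-08), and the mean was 63135 scaled reads against 2278. Elovl6, which lengthens the product of Fasn, read 14.35, 14.14, 14.46, 13.21 and 14.24 in the Damaraland libraries and 9.69, 9.47 and 7.30 in the guinea pig libraries. Its lowest Damaraland library was replicate 4 and its lowest guinea pig library replicate 3. The difference was 5.26 ± 0.43 (limma adjusted p = 1.2e-08).

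Acaca, the acetyl-CoA carboxylase that makes the substrate of Fasn, was higher by 3.94 ± 0.26. In Srebf1, the SREBP gene that acts on fatty acid synthesis, the libraries read 12.45, 12.42, 12.52, 11.001 and 12.81 in the Damaraland libraries and 9.11, 10.70 and 8.10 in the guinea pig libraries. Damaraland replicate 4 was the lowest of its group in Fasn, Elovl6, Acaca and Srebf1, and the groups did not overlap in any of them. Insig1, the sterol-sensitive brake on SREBP, was higher by 4.95 ± 0.21 and Insig2 by 1.55 ± 0.17. Along the cholesterol pathway the genes called higher included Hmgcs1 (2.95), Pmvk (1.11), Mvd (2.41), Idi1 (1.84), Fdft1 (1.85), Sqle (1.77), Lss (2.16) and Cyp51 (2.21). Dgat1, which completes triglycerides, was called higher at 1.004. Genes not called included Dgat2 (0.98), Acly (0.65), Srebf2 (0.63), Scap (0.41), Mvk (-0.02), Dhcr7 (-0.18) and Acacb (-0.31).

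Among the 2 lower genes was Gpam, which starts glycerolipid synthesis, at -1.31 ± 0.19. The other was Mlxipl, which encodes the carbohydrate-responsive factor ChREBP. Mlxipl read 9.48, 10.18, 9.93, 9.78 and 11.52 in the Damaraland libraries and 10.62, 12.19 and 10.99 in the guinea pig libraries. The groups overlapped, and without guinea pig replicate 2 the difference went from -1.08 to -0.62 and was not called. Mlxipl was not called either without Damaraland replicate 1 (-0.91) or 4 (-0.99). In a fit of the 8 libraries alone it also lost its call (limma adjusted p = 0.0502). Acss2, which activates acetate, was not in the list but was among the largest differences at 5.96 ± 0.23 (limma adjusted p = 1.0e-12).

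**Figure D2:**
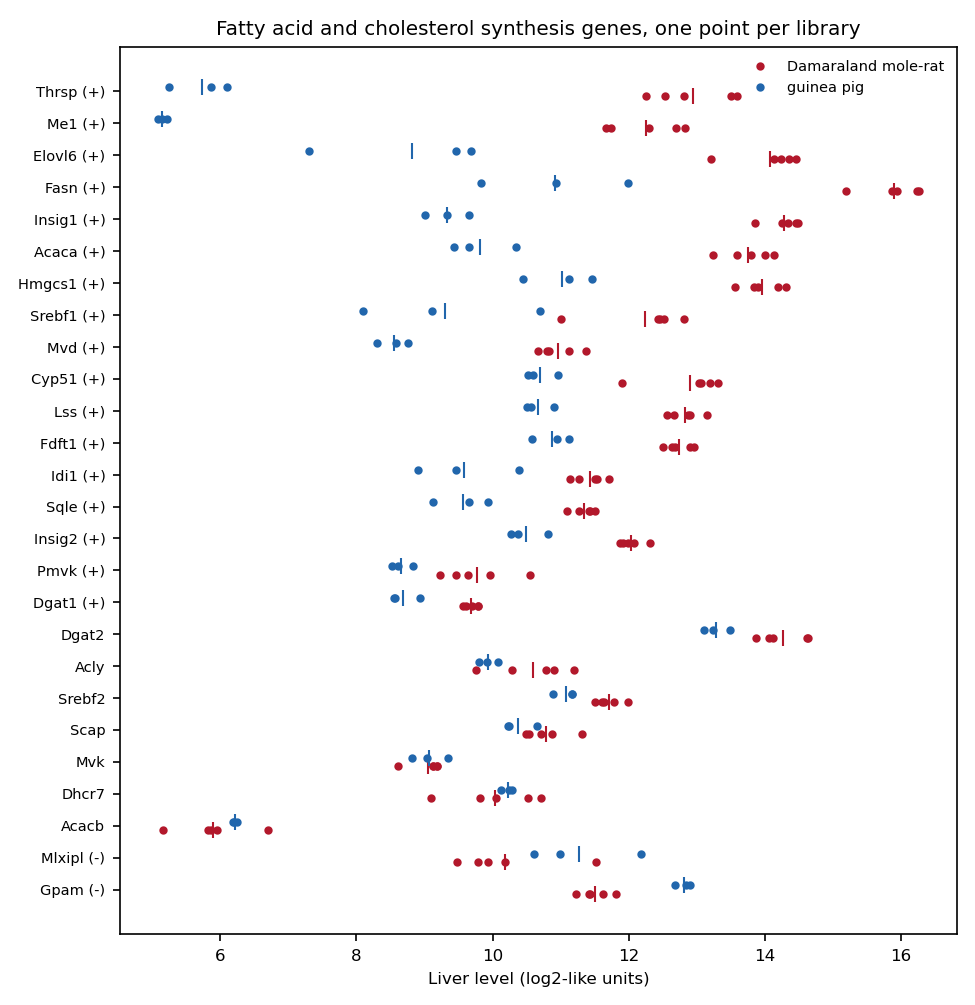
Liver levels (horizontal axis, log2-like units) of 26 of the 28 tested genes of fatty acid and cholesterol synthesis, with a red point for each of 5 Damaraland libraries, a blue point for each of 3 guinea pig libraries and a tick at each mean. Genes are ordered by difference, those marked with a plus sign (17) were called higher and those with a minus sign (2) lower in the Damaraland mole-rat.

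Genes of lipoproteins and their handling were called in 1 direction. Of 20 tested, 11 were called higher (55.0%, beside 19.7% over all genes) and none lower, with a median of 1.18. With limma 1 gene was lower at an unadjusted p under 0.05 and with voom none was called lower, and 1 was called lower without Damaraland replicate 1. Apoa1, the main protein of high-density lipoprotein, read 14.65, 14.81, 14.83, 15.03 and 14.96 in the Damaraland libraries and 7.96, 6.51 and 7.07 in the guinea pig libraries. The mean was 29777 scaled reads in the Damaraland mole-rat and 122 in the guinea pig, and no library overlapped. The difference was 7.68 ± 0.30 (limma adjusted p = 1.0e-12). Apoa1 read 14.04 to 15.46 in 4 naked mole-rat livers and 17.03 to 17.26 in 2 mouse livers. Apoa2, the second protein of the same particle, read 15.98, 16.42, 16.07, 16.67 and 16.004 in the Damaraland libraries and 13.07, 11.38 and 12.19 in the guinea pig libraries. It was higher by 4.02 ± 0.31, again with no overlap. Abca1, which loads cholesterol onto these particles, was higher by 3.70 ± 0.17.

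The other genes of lipoprotein transport called higher included Apoc4 (4.67), Apom (1.59), Mttp (1.32), Apoc1 (1.29) and Apoa4 (1.08). Apoe, which guides remnant particles to the liver, read 17.72, 17.86, 17.52, 17.86 and 17.39 in the Damaraland libraries and 17.45, 17.89 and 18.43 in the guinea pig libraries and overlapped between the species, with a difference of -0.25 ± 0.33 that did not pass the test. The genes Apoc3 (0.80), Apoh (0.58), Lcat (0.29), Apoa5 (0.09), Lipc (-0.09), Scarb1 (-0.12), Lrp1 (-0.80) and Angptl4 (-0.95) were not called either. Apob was not analysed here.

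**Figure D3:**
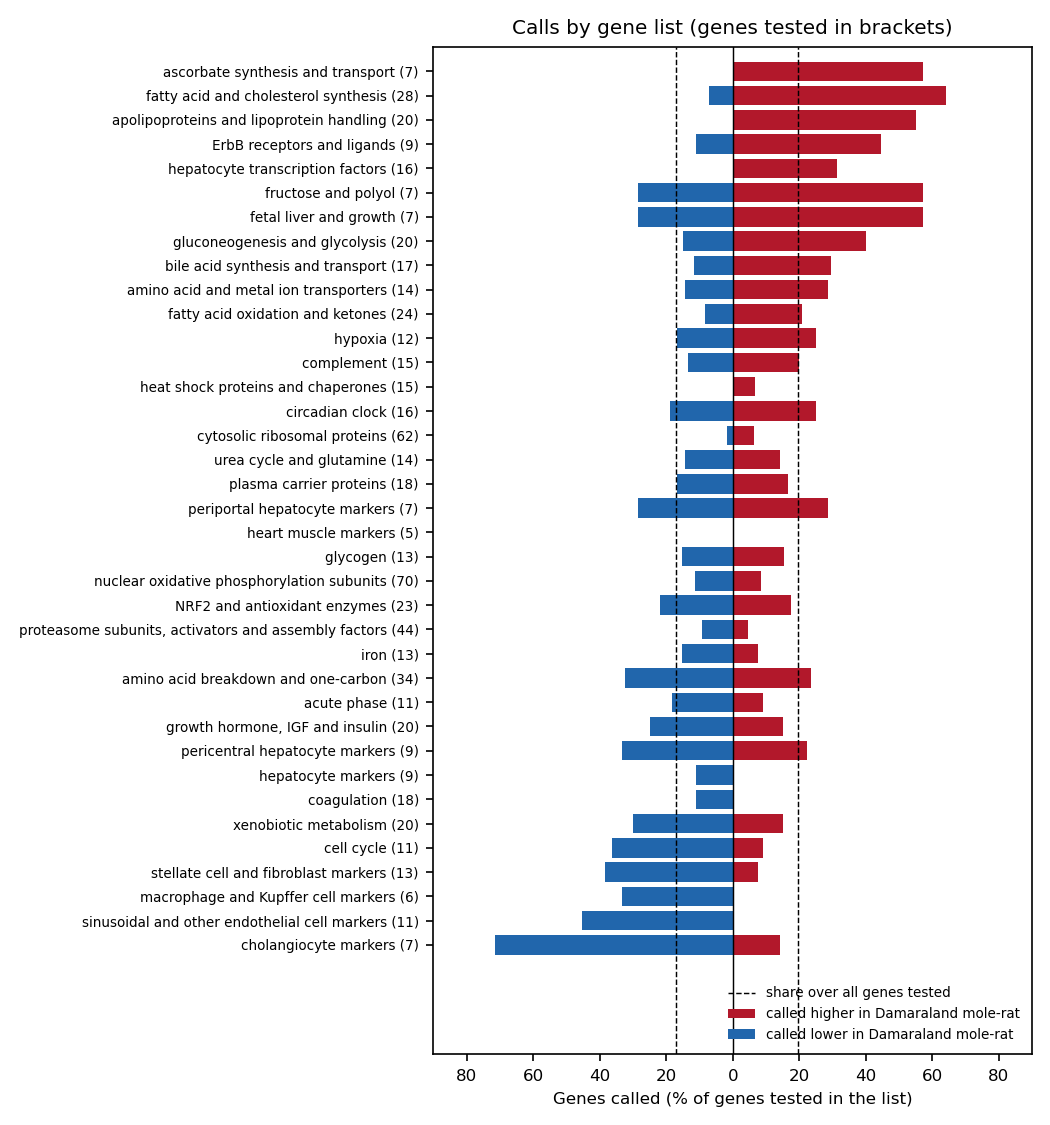
Share of the tested genes of each list that were called higher (red, to the right) or lower (blue, to the left) in the Damaraland liver, in percent, with the number of genes tested in brackets and lists of at least 5 genes shown. Dashed lines give the shares over all genes tested, 19.7% higher and 17.2% lower, and the list of fatty acid and cholesterol synthesis reaches 18 of 28 higher.

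In glycolysis and gluconeogenesis 8 of 20 genes were called higher and 3 lower (55.0% called, 36.9% over all genes), with a median of 0.58. Pklr, the liver pyruvate kinase, was higher by 2.95 ± 0.20 (limma adjusted p = 1.1e-09). Gpi1 (2.01) and Pfkfb1 (1.95) were called higher as well. Gckr, a regulatory protein of hepatic glucose use, was higher by 1.93 ± 0.20. For gluconeogenesis, Pck1, the cytosolic phosphoenolpyruvate carboxykinase, read 15.09, 14.53, 15.24, 15.18 and 14.67 in the Damaraland libraries and 13.05, 13.02 and 14.46 in the guinea pig libraries and was higher by 1.43 ± 0.39 (limma adjusted p = 0.00412). With limma's sample weights, which give less weight to libraries that vary more, it had 0.95 and was not called. Pck2, its mitochondrial counterpart, went the other way: 8.98, 8.90, 8.86, 7.97 and 8.11 in the Damaraland libraries and 13.14, 12.86 and 13.27 in the guinea pig libraries, with a difference of -4.53 ± 0.21 (limma adjusted p = 1.1e-11). Pck2 read 13.31 to 13.51 in 4 naked mole-rat livers and 7.15 to 7.24 in 2 mouse livers. G6pc, which releases free glucose, did not pass the test (0.13 ± 0.35), while Slc37a4, which carries its substrate into the endoplasmic reticulum, was called at 1.42. Hk2, a hexokinase of muscle and fat, was lower, with a difference of -1.20, and Tpi1 is described with the near-absent genes.

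Fructose handling was represented by 7 genes, of which 4 were called higher and 2 lower (85.7% called, 36.9% over all genes). Slc2a5, the fructose transporter, read 9.74, 9.43, 8.93, 7.98 and 7.59 in the Damaraland libraries and 4.89, 4.71 and 4.67 in the guinea pig libraries, with no overlap and a difference of 3.98 ± 0.47 (limma adjusted p = 9.5e-07). Khk, which phosphorylates fructose, read 13.70, 13.19, 13.65, 13.34 and 12.98 in the Damaraland libraries and 11.06, 10.94 and 11.25 in the guinea pig libraries and was higher by 2.29 ± 0.22 (limma adjusted p = 7.9e-08). Tkfc, which phosphorylates the glyceraldehyde released from fructose, differed most, by 4.38 ± 0.21 (limma adjusted p = 1.1e-11). The genes of the polyol route, which makes fructose from glucose, were both lower: Akr1b3, the aldose reductase, with -1.72 ± 0.26 and Sord, the sorbitol dehydrogenase, with -1.20 ± 0.19. Glyctk was not called (0.37).

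Of 13 glycogen genes 2 were called in each direction (30.8% called, 36.9% over all genes). Pygl, the liver glycogen phosphorylase, read 15.55, 15.33, 15.38, 16.08 and 15.47 in the Damaraland libraries and 12.27, 12.27 and 12.43 in the guinea pig libraries, a difference of 3.24 ± 0.21 (limma adjusted p = 7.2e-10). The liver glycogen synthase Gys2 showed -0.06 ± 0.19 and was not called. Gys1, the synthase of muscle, read 6.63, 6.80, 6.61, 6.62 and 7.88 in the Damaraland libraries and 11.99, 11.24 and 10.59 in the guinea pig libraries and was lower, with a difference of -4.37 ± 0.34 (limma adjusted p = 5.6e-09). Damaraland replicate 5 was more than 1 unit above the other 4 in Gys1 but still under every guinea pig library. Phkg2 (1.28) and Phka2 (-1.04), subunits of the kinase that activates the phosphorylase, differed in opposite directions, and Phka2 was not called without Damaraland replicate 1 (-0.92), Damaraland replicate 3 (-0.96) or guinea pig replicate 3 (-0.94).

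Fatty acid oxidation had 5 of 24 genes called higher and 2 lower (median 0.54), a share called higher of 20.8% beside 19.7% over all genes. The count called higher was 8 without Damaraland replicate 5, and the count called lower was 4 without guinea pig replicate 1. Acadl, the long-chain acyl-CoA dehydrogenase, read 12.05, 12.08, 12.14, 12.19 and 11.59 in the Damaraland libraries and 6.97, 6.44 and 6.51 in the guinea pig libraries. The groups stood more than 4 units apart, and the difference was 5.37 ± 0.19 (limma adjusted p = 2.4e-13). Acadl read 12.02 to 12.67 in 4 naked mole-rat livers and 11.69 to 11.72 in 2 mouse livers. The medium-chain enzyme Acadm had -0.98, under the size threshold, and the very-long-chain enzyme Acadvl 0.57. The other genes called higher were Bdh1 (1.94), Ehhadh (1.58), Hadha (1.42) and Acads (1.08), and the genes called lower were Decr1 (-1.89) and Etfa (-1.40). Cpt1a, which controls entry of fatty acids into mitochondria, had 1.04 ± 0.48 and did not pass the test (limma adjusted p = 0.0677). Acot11, an acyl-CoA thioesterase outside the list, was higher by 5.56 ± 0.29.

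Of 17 genes of bile acid synthesis and transport 5 were called higher and 2 lower (41.2% called, 36.9% over all genes). The count called higher was 3 without guinea pig replicate 2. Cyp7a1, the rate-limiting enzyme of the classical route, read 10.15, 11.99, 10.56, 11.14 and 10.39 in the Damaraland libraries and 11.83, 8.67 and 9.90 in the guinea pig libraries. The guinea pig libraries spread over more than 3 units and overlapped the Damaraland libraries. The difference of 0.71 ± 0.53 did not pass the test. It was 1.56 and called without guinea pig replicate 1, and -0.02 without guinea pig replicate 2. Cyp27a1, which starts the alternative route, was higher by 2.35 ± 0.20 (limma adjusted p = 2.3e-08). Slc27a5 (1.35) and Baat (1.18), which conjugate bile acids, and Akr1d1 (1.33) were called higher. Klb, the co-receptor through which an intestinal hormone restrains bile acid synthesis, was called at 1.38 but had 0.80 without guinea pig replicate 2. Abcb11, the canalicular bile salt pump, was lower, with a difference of -1.26 ± 0.18. Slc51a, a subunit of the basolateral exporter, read 4.29, 4.73, 4.68, 4.29 and 5.10 in the Damaraland libraries and 8.54, 8.62 and 8.90 in the guinea pig libraries, a difference of -4.07 ± 0.34.

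Amino acid breakdown and one-carbon metabolism had 8 of 34 genes called higher and 11 lower (55.9% called, 36.9% over all genes). The median was -0.31. The methionine cycle genes Mat1a (-1.77) and Gnmt (-1.58), and Cbs (-1.07), which leads homocysteine out of the cycle, were lower, and Ahcy (-0.74) and Bhmt (-0.45) were not called. Mat1a read 14.37, 14.75, 13.97, 14.67 and 14.37 in the Damaraland libraries and 16.13, 16.19 and 16.26 in the guinea pig libraries, with no overlap. Of tyrosine breakdown, the enzyme Hpd (-1.22) was lower and the downstream enzyme Hgd was higher (1.11). Of the branched-chain pathway Bckdha (-1.32), Bckdhb (-1.20) and Mccc1 (-1.61) were lower and Ivd higher (1.28).

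The paralogs Sds and Sdsl, which break down serine and threonine, went opposite ways. Sds read 10.88, 10.63, 11.06, 10.89 and 9.11 in the Damaraland libraries and 6.86, 5.01 and 7.15 in the guinea pig libraries, a difference of 4.17 ± 0.49 (limma adjusted p = 9.7e-07), and Sdsl was lower, with a difference of -2.75 ± 0.26 (limma adjusted p = 7.9e-08). Reads of such similar genes can be divided between them in counting, which was not tested. Other lower genes included Ftcd (-1.16) and Gldc (-1.58), and other higher genes Acmsd (1.87), Amt (1.70), Uroc1 (1.67), Prodh (1.64) and Agxt (1.21). Gldc and Amt belong to the glycine cleavage system.

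Of 14 genes of the urea cycle and glutamine, 2 were called higher and 2 lower (28.6% called, 36.9% over all genes). Gpt, the alanine aminotransferase, read 12.16, 11.94, 12.29, 12.66 and 12.75 in the Damaraland libraries and 8.003, 9.39 and 8.68 in the guinea pig libraries and was higher by 3.67 ± 0.27 (limma adjusted p = 3.7e-09). Arg1, the arginase that releases urea, was higher by 1.81 ± 0.22 (limma adjusted p = 1.7e-06). Cps1, which fixes ammonia in the first step, read 15.56, 15.62, 15.32, 15.27 and 15.26 in the Damaraland libraries and 16.44, 16.26 and 16.59 in the guinea pig libraries; its difference of -1.02 ± 0.21 lay at the size threshold and was not called without Damaraland replicate 4 (-0.99), Damaraland replicate 5 (-0.99) or guinea pig replicate 3 (-0.95). Gls2, the liver glutaminase, had -1.02 and was likewise not called without Damaraland replicate 1 (-0.97), Damaraland replicate 5 (-0.88) or guinea pig replicate 3 (-0.85). The genes called higher numbered 4 without guinea pig replicate 1. Otc (-0.10), Ass1 (-0.78) and Asl (-0.34) were not called.

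Among 14 transporters of amino acids and metal ions 4 were called higher and 2 lower (42.9% called, 36.9% over all genes). Slc6a9, the glycine transporter GlyT1, read 13.77, 13.85, 13.74, 14.08 and 14.10 in the Damaraland libraries and 5.98, 5.34 and 5.79 in the guinea pig libraries. The groups stood more than 7 units apart at their closest. The difference was 8.21 ± 0.17 (limma adjusted p = 7.8e-16), the second largest positive one among genes with both species means at least 1 unit above the table's lowest value. The means were 15420 and 21.3 scaled reads, and the gene read 12.36 to 12.79 in 4 naked mole-rat livers and 9.90 to 10.23 in 2 mouse livers. Slc1a4, a carrier of serine and other neutral amino acids, was higher by 4.86 ± 0.19, the zinc importer Slc39a5 by 3.76 ± 0.16 and the glutamine transporter Slc38a3 by 2.32 ± 0.20. Slc7a2, which imports arginine, and Slc7a5, which exchanges large neutral amino acids, were lower, with differences of -1.52 and -1.14. Gatm, which joins glycine to arginine in the first step of creatine synthesis, read 8.09, 7.68, 7.95, 8.76 and 8.67 in the Damaraland libraries and 14.62, 13.75 and 14.53 in the guinea pig libraries. It was lower, with a difference of -6.07 ± 0.30 (limma adjusted p = 2.0e-11) and read 5.62 to 7.02 in 4 naked mole-rat livers and 7.55 to 7.77 in 2 mouse livers.

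Of 7 genes around ascorbate synthesis and transport, 4 were called higher (57.1%, beside 19.7% over all genes) and none lower. None was lower at an unadjusted p under 0.05 in limma either, and none with voom. The higher genes were Ugp2, which makes UDP-glucose, at 1.63 ± 0.20, and Akr1a1, which reduces glucuronate, at 1.34 ± 0.23. The others were Rgn, which forms the lactone, at 1.11 ± 0.20, and the ascorbate transporter Slc23a1 at 1.29 ± 0.16. Ugdh, Slc23a2 and Gsto1 were not called (-0.35, -0.45 and -0.48). Gulo, whose product performs the last step, was not analysed here.

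Xenobiotic metabolism had 3 of 20 genes called higher and 6 lower (45.0% called, 36.9% over all genes). Cyp2e1, which oxidises ethanol and many solvents, read 8.24, 7.55, 8.55, 14.98 and 15.15 in the Damaraland libraries and 17.92, 16.33 and 17.79 in the guinea pig libraries. Damaraland replicates 1 to 3 lay more than 6 units below replicates 4 and 5, and all 5 lay below the guinea pig libraries. The difference was -6.45 ± 1.40 (limma adjusted p = 6.3e-04). Cyp2f2 read 5.05, 5.16, 5.34, 4.87 and 5.38 in the Damaraland libraries and 11.93, 11.79 and 12.46 in the guinea pig libraries and was lower, with a difference of -6.90 ± 0.19 (limma adjusted p = 1.3e-14). Aox1, an aldehyde oxidase, was lower, with a difference of -2.29 ± 0.18, and Mgst1 (-1.47), Fmo2 (-1.46) and Por (-1.13), which feeds electrons to the cytochromes P450, were lower too. Ephx2, the soluble epoxide hydrolase, was higher by 2.68 ± 0.20 and Cyp1a2 by 1.81 ± 0.36.

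Markers of the hepatocyte zones were called in both directions. The shares called were 55.6% of the pericentral and 57.1% of the periportal markers, beside 36.9% over all genes. Of 9 pericentral markers Oat (2.13) and Cyp1a2 were called higher, and Cyp2e1, Slc1a2 (-6.87) and Tbx3 (-2.70) lower. Glul, the glutamine synthetase of the innermost pericentral cells, was not called (0.61 ± 0.38), nor were Lgr5 (-0.05), Axin2 (0.25) and Rhbg (0.76). Of 7 periportal markers Sds and Pck1 were called higher, Cyp2f2 and Gls2 lower, and Cdh1 (0.46), Hal (0.43) and Ass1 were not called.

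Among 23 antioxidant enzymes and NRF2 targets 4 were called higher and 5 lower (39.1% called, 36.9% over all genes). Prdx1, a peroxiredoxin, read 13.22, 13.101, 13.16, 13.07 and 12.28 in the Damaraland libraries and 8.95, 8.85 and 8.66 in the guinea pig libraries, a difference of 4.15 ± 0.22 (limma adjusted p = 4.1e-11), and Txnrd1, the thioredoxin reductase, was higher by 2.56 ± 0.20. Pgd (1.55) and Gclm (1.05) were the others called higher. Cat, the catalase, read 15.10, 15.44, 15.31, 15.72 and 15.12 in the Damaraland libraries and 17.03, 16.48 and 17.15 in the guinea pig libraries and was lower, with a difference of -1.55 ± 0.21 (limma adjusted p = 6.2e-06). Prdx5 (-2.11), Gclc (-1.32), Gpx4 (-1.14) and Txn1 (-1.13) were lower as well. The glutamate-cysteine ligase subunits Gclc and Gclm thus stood on opposite sides. The regulators Nfe2l2 (-0.40) and Keap1 (-0.17) were not called.

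Among secreted proteins, 3 of 18 plasma carriers were called higher and 3 lower (33.3% called, 36.9% over all genes). Hp, which binds free haemoglobin, read 15.69, 17.01, 15.79, 17.31 and 16.59 in the Damaraland libraries and 15.17, 13.76 and 14.92 in the guinea pig libraries and was higher by 1.86 ± 0.41 (limma adjusted p = 7.4e-04), and Hpx, which binds haem, was higher by 1.52 ± 0.31. Serpina7, the thyroxine-binding globulin, was higher by 6.08 ± 0.24, with 0 to 10 reads in the guinea pig libraries. Itih4 (-1.79), Fetub (-1.33) and Serpina6 (-1.10), the corticosteroid-binding globulin, were lower, and without guinea pig replicate 1 only 1 carrier was called lower.

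Complement had 3 of 15 genes called higher and 2 lower (33.3% called, 36.9% over all genes). C4b read 13.71, 16.03, 14.66, 16.12 and 15.81 in the Damaraland libraries and 12.90, 8.53 and 9.68 in the guinea pig libraries, with a guinea pig spread of more than 4 units and a difference of 4.90 ± 0.70 (limma adjusted p = 9.8e-06). Mbl2, a lectin that starts the cascade, was higher by 2.18 ± 0.23 and C7 by 3.03 ± 0.31. Cfi, which degrades activated components, was lower, with a difference of -1.41 ± 0.22 and C2 with -1.04, the latter not called without Damaraland replicate 1 (-0.95), Damaraland replicate 3 (-0.96) or guinea pig replicate 3 (-0.87).

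Coagulation had no gene called higher and 2 of 18 lower, F2 (prothrombin, -1.26 ± 0.21) and F9 (-1.53 ± 0.24), a share called of 11.1% beside 36.9%. By limma 2 genes were higher at an unadjusted p under 0.05, by voom none was called higher, and without guinea pig replicate 1 there was 1. Of 11 acute phase genes Hp was higher and 2 were lower (27.3% called, 36.9% over all genes). Saa4, a constitutive serum amyloid A, read 8.13, 8.90, 8.14, 8.78 and 8.05 in the Damaraland libraries and 14.96, 14.26 and 15.001 in the guinea pig libraries, a difference of -6.34 ± 0.22 (limma adjusted p = 2.3e-13). Saa4 read 13.82 to 14.08 in 4 naked mole-rat livers and 11.90 to 12.002 in 2 mouse livers. Crp, the C-reactive protein, read 4.29, 4.29, 4.56, 4.29 and 4.87 in the Damaraland libraries and 7.90, 8.20 and 8.78 in the guinea pig libraries. Its Damaraland libraries held 0 to 3 reads, and it was lower, with a difference of -3.83 ± 0.24. Crp reached 10.89 to 11.96 in 4 naked mole-rat livers and 12.36 to 12.41 in 2 mouse livers.

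The growth hormone, IGF and insulin genes included 3 of 20 called higher (1 under quantile normalisation) and 5 lower. The share called was slightly above the 36.9% over all genes, with a median difference of 0.12 beside 0.04. The share called higher was below the 19.7% over all genes, and the share called lower was above the 17.2%. Igf1, the hormone that the liver releases under growth hormone, read 11.94, 11.69, 11.98, 12.03 and 10.96 in the Damaraland libraries and 11.95, 11.36 and 11.72 in the guinea pig libraries, with overlapping groups and a difference of 0.04 ± 0.23. Ghr, the growth hormone receptor, was not called (0.42 ± 0.19), and Stat5b, which carries its signal, was lower, with a difference of -1.13 ± 0.19. Igf2 read 11.41, 12.26, 11.84, 12.54 and 12.36 in the Damaraland libraries and 13.81, 13.76 and 14.15 in the guinea pig libraries and was lower, with a difference of -1.83 ± 0.25 (limma adjusted p = 5.6e-06). Of the binding proteins, Igfbp2 (2.72 ± 0.70) and Igfbp4 (1.14, but 0.85 and not called without guinea pig replicate 2) were higher, and Igfbp1 (-0.32) and Igfbp3 (-0.86) were not called. The insulin signalling genes Irs1 (-1.44) and Foxo3 (-1.56) and the prolactin receptor Prlr (-2.27) were lower, Jak2 was higher (1.002), and Insr, the insulin receptor, was not called (0.38).

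Of 9 genes of the ErbB receptor family and its ligands 4 were called higher and 1 lower (55.6% called, 36.9% over all genes). Erbb2, the receptor without a ligand of its own, read 11.67, 11.85, 11.68, 12.22 and 11.56 in the Damaraland libraries and 7.54, 7.12 and 7.29 in the guinea pig libraries, a difference of 4.48 ± 0.18 (limma adjusted p = 1.1e-12). Erbb2 read 11.43 to 12.09 in 4 naked mole-rat livers and 5.93 to 5.995 in 2 mouse livers. Its partner Erbb3 (1.69) and the ligands Nrg1 (2.88) and Tgfa (2.11) were higher, Errfi1, an inhibitor of these receptors, was lower (-2.27), and Egfr was not called (0.38).

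Hepatocyte transcription factors had 5 of 16 called higher (31.25%, beside 19.7% over all genes) and none lower. At an unadjusted p under 0.05 limma gave 2 lower, voom called 1 lower, and limma called 1 lower without Damaraland replicate 2, 4 or 5 or without guinea pig replicate 2. Nr0b2, the bile acid-induced repressor SHP, was higher by 2.49 ± 0.44, Creb3l3 by 2.20 ± 0.23 and Ppara, the fatty acid receptor, by 1.36 ± 0.16. Nr1i2 (1.14) and Onecut2 (1.02) completed the group. Hnf4a, a master regulator of the hepatocyte, read 13.45, 13.57, 13.49, 13.63 and 13.48 in the Damaraland libraries and 12.54, 12.48 and 12.98 in the guinea pig libraries; the groups did not overlap, but the difference of 0.85 ± 0.16 stayed under the size threshold and among the omissions of 1 library passed it only without guinea pig replicate 3 (1.01).

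The circadian clock list had 4 of 16 genes called higher and 3 lower (43.75% called, 36.9% over all genes). It was led by Bhlhe40 (3.32 ± 0.47) and Rora (2.13) on one side and Ciart (-3.42 ± 0.44) and Hlf (-2.38) on the other. The labels give no time of day for the sampling. Of 12 hypoxia genes 3 were called higher and 2 lower (41.7% called, 36.9% over all genes). The oxygen-regulated factors Epas1 (1.91 ± 0.17) and Hif1a (1.29 ± 0.15) and their target Pdk1 (1.94 ± 0.22) were higher, and the targets Vegfa (-1.53) and P4ha1 (-1.52) were lower. Epas1 read 13.25, 13.25, 12.94, 13.38 and 13.52 in the Damaraland libraries and 11.57, 10.97 and 11.54 in the guinea pig libraries, with no overlap.

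Of 13 iron genes 23.1% were called, beside 36.9% over all genes. Ftl1, the ferritin light chain, was higher (1.10), and Tfrc (-1.91 ± 0.24), the transferrin receptor, and Slc11a2 (-3.34 ± 0.16), a ferrous iron importer, were lower. Under quantile normalisation Ftl1 had 0.94 and was not called. Of 7 genes of fetal liver and growth 85.7% were called, beside 36.9% over all genes. Gpc3 (2.24 ± 0.35), Sall4 (3.20 ± 0.23), Dlk1 (1.59) and Igf2bp3 (1.27) were higher and Igf2 and Mest (-1.03) lower. Afp, the alpha-fetoprotein gene, was not called (-1.32 ± 0.72). Mest was not called without Damaraland replicate 1 (-0.94) or 3 (-0.99) or with sample weights (-0.67) and did not pass the rule on low values without guinea pig replicate 1 or 2. Sall4, a transcription factor of fetal liver, had 0 reads in every guinea pig library. With 3 reads over the 3 guinea pig libraries together as the floor, it was at least 201.6-fold higher in the Damaraland mole-rat.

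Of 62 cytosolic ribosomal protein genes 4 were called higher and 1 lower, with a median of 0.25. The count called higher was 8 without guinea pig replicate 1 and 2 without guinea pig replicate 2. Of 70 nuclear genes for oxidative phosphorylation 6 were called higher and 8 lower, with a median of -0.02, and of 44 proteasome genes 2 and 4, with a median of -0.01. The shares called were 8.06%, 20.0% and 13.6%, each below the 36.9% over all genes, and no test of these differences was made. The genes of the largest size were Atp5j2 (2.63), Sdhd (2.22), Cox8a (-2.31) and Uqcrh (-2.05) among the respiratory subunits, and Rps13 (2.62), Rpl27 (1.85) and Rpl23 (-1.84) among the ribosomal proteins. Psmb9 (-2.08) and Psmb10 (-2.32), subunits of the immunoproteasome, were the lowest of the proteasome genes. Of 15 heat shock proteins and chaperones Hspe1 alone was called (2.10), or 6.67% beside 36.9% over all genes. However, 4 were called higher without guinea pig replicate 1 and 2 without Damaraland replicate 5. In the cell cycle list 1 of 11 was called higher (Mcm3, 1.18) and 4 lower, or 45.5% beside 36.9% over all genes. The lower genes included Mcm5 (-1.92) and Pcna (-1.44), and 2 genes were called higher without guinea pig replicate 2.

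Markers of cells other than hepatocytes were lower in the Damaraland liver where they were called, with 2 exceptions, Spp1 and Pdgfrb. Of 7 cholangiocyte markers 5 were called lower and Spp1 higher (1.61), or 85.7% called beside 36.9% over all genes. Krt19, a keratin of the bile ducts, read 7.43, 6.16, 8.40, 7.37 and 6.49 in the Damaraland libraries and 9.99, 10.97 and 9.59 in the guinea pig libraries, a difference of -3.01 ± 0.39 (limma adjusted p = 2.8e-06). The summed level of the cholangiocyte list ran from 188 to 563 scaled reads in the Damaraland libraries and from 1142 to 2409 in the guinea pig libraries. Krt19 alone made up 20.1% to 53.4% of the Damaraland sums and 59.5% to 81.5% of the guinea pig sums. Without Krt19 the sums were 150 to 263 and 409 to 664. Of 11 endothelial markers 5 were called lower (45.5%, beside 17.2% over all genes), and only 2 without guinea pig replicate 1. Among the 5 were Pecam1 (-1.53 ± 0.17), Tek (-1.29) and Cdh5 (-1.07). None of the 11 was called higher, while at an unadjusted p under 0.05 limma gave 1 higher and 10 lower. The sums of the endothelial list were 13140 to 14739 against 19252 to 22247 scaled reads, without overlap.

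Of 13 stellate cell and fibroblast markers 5 were lower and Pdgfrb was higher (1.24), or 46.2% called beside 36.9% over all genes. Dcn, the matrix proteoglycan decorin, read 6.44, 6.27, 6.19, 6.65 and 6.10 in the Damaraland libraries and 11.20, 10.21 and 10.90 in the guinea pig libraries, a difference of -4.44 ± 0.25 (limma adjusted p = 1.2e-10). Rgs5 (-4.15), Lum (-2.98), Lrat (-2.11), which stores vitamin A in these cells, and Col3a1 (-1.33) were lower, and Col1a2 (-0.48), Des (-0.60) and Acta2 (-0.27) were not called. Of 6 macrophage markers Cd5l (-2.91 ± 0.36) and Mrc1 (-1.32 ± 0.15) were lower, or 33.3% beside 17.2% over all genes. The count called lower was 4 without Damaraland replicate 2 or without guinea pig replicate 2. The sums of the macrophage list were 2793 to 4713 against 6118 to 10038 scaled reads.

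Cd3e, a part of the T cell receptor complex, read 5.05, 4.83, 4.96, 4.95 and 5.38 in the Damaraland libraries and 10.27, 10.12 and 10.67 in the guinea pig libraries, a difference of -5.32 ± 0.25 (limma adjusted p = 9.5e-12). Its partner Cd3g was lower, with a difference of -1.72 ± 0.21, and Lck (-0.47) was not called. Cd3d, Gzma and Cd2 did not pass the rule on low values. They had 2 to 13, 15 to 46 and 9 to 19 reads in the guinea pig libraries. The T and NK cell list summed to 27.8 to 62.7 scaled reads in the Damaraland libraries and to 1196 to 1816 in the guinea pig libraries, where Cd3e alone made up 87.6% to 91.5% of the sum. Without Cd3e the sums were 22.3 to 51.0 and 111 to 225. Of 2 B cell markers tested, Cd79a, of the B cell receptor, was lower, with a difference of -2.66 ± 0.18. Jchain, which links antibody subunits, had 0.97 ± 0.21 and was not called by limma but called higher with voom. Cd79b, Ms4a1 and Pax5 did not pass the rule on low values, with 9 to 17, 13 to 14 and 2 to 5 guinea pig reads. The part of these cells in the other differences was not tested. The hepatocyte markers summed to 1675310 to 2360300 scaled reads in the Damaraland mole-rat and to 1029880 to 1744190 in the guinea pig, most of it from Alb, which was not called. Without Alb the sums were 274114 to 438658 and 380413 to 541833, and the median difference over the 9 markers was -0.28.

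Outside the lists, Cbr2, a carbonyl reductase, had the largest positive difference among genes with both species means at least 1 unit above the table's lowest value. Cbr2 read 15.99, 15.15, 15.37, 14.88 and 13.55 in the Damaraland libraries and 5.87, 6.95 and 6.39 in the guinea pig libraries, with Damaraland replicate 5 the lowest of its group and no overlap. The difference was 8.58 ± 0.39 (limma adjusted p = 7.3e-12), and the gene read 4.29 to 5.21 in 4 naked mole-rat livers and 4.29 to 4.57 in 2 mouse livers. Ahnak, which encodes a giant scaffold protein, was higher by 6.49 ± 0.19 (limma adjusted p = 2.5e-14). Emp2, a small membrane protein, and Kif26a, an atypical kinesin, were higher by 5.68 ± 0.17 and 5.38 ± 0.19.

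Among the 12 largest negative differences, Slc22a2, the organic cation transporter OCT2, read 8.06, 4.91, 7.36, 5.94 and 6.05 in the Damaraland libraries and 12.71, 12.46 and 12.78 in the guinea pig libraries. Its Damaraland libraries spread over more than 3 units, all below the guinea pig libraries, and the difference was -6.19 ± 0.51 (limma adjusted p = 1.1e-08). Slco2b1, an organic anion transporter, was lower, with a difference of -5.56 ± 0.21 and the zinc importer Slc39a4 with -5.25 ± 0.16. Others were Usp13, a deubiquitinase (-6.03), Adgrd1, an adhesion receptor (-5.69), 5330417C22Rik (-5.64), Fbln1, a matrix protein (-5.56), Serinc2 (-5.34) and C1qtnf3, a secreted protein (-5.24). Fbln1 had 55.6 scaled reads on average in the Damaraland mole-rat and 4218 in the guinea pig.

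**Figure D4:**
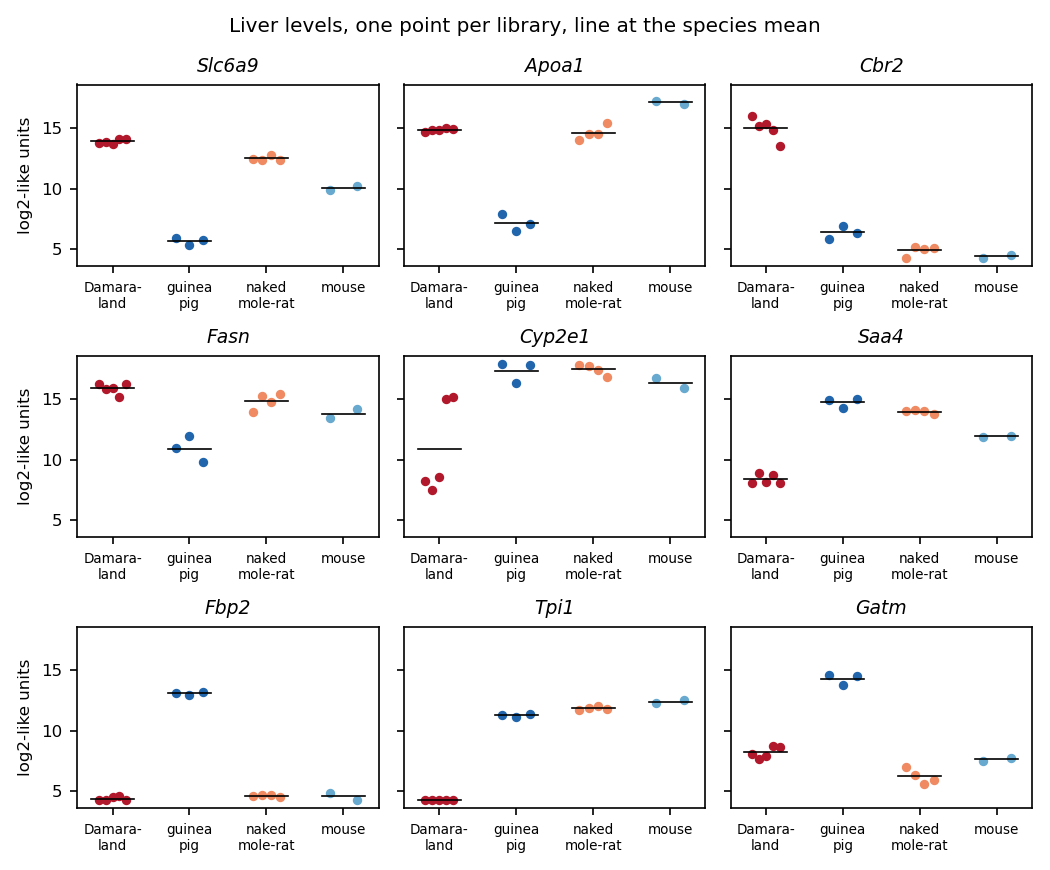
Liver levels (vertical axis, log2-like units) of 9 genes in the 14 liver libraries, with a point for each library and a line at each species mean. Slc6a9, Apoa1, Cbr2 and Fasn are higher in every Damaraland library than in every guinea pig library, the other 5 genes are lower, and the Damaraland points of Cyp2e1 lie at 7.55 to 8.55 in 3 libraries and at 14.98 and 15.15 in the other 2.

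Some genes were near absent in a single species of the pair, with at most 10 reads in each of its libraries and at least 1000 in each library of the other. There were 9 such genes in the Damaraland mole-rat and 11 in the guinea pig. These counts follow from the rule and are given as a description. In the Damaraland mole-rat they were Fbp2, Slc1a2, Mme, Tpi1, Ogdhl, Kcnk1, Gramd1c, Rab18 and Tdh. Fbp2, the muscle form of fructose bisphosphatase, had 0 to 1 reads in the Damaraland libraries and 9792 to 14069 in the guinea pig libraries. Slc1a2, a glutamate transporter, had 2 to 8 reads against 3832 to 7356, Mme, the peptidase neprilysin, 1 to 8 against 3443 to 5204, and Ogdhl 1 to 7 against 2184 to 3271.

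Tpi1, the triosephosphate isomerase of glycolysis, had 0 reads in all 5 Damaraland livers and all 5 Damaraland hearts, against 2702 to 3980 in the guinea pig livers. With 3 reads over the 5 libraries together as the floor it was at least 4339-fold lower. Rab18, a small GTPase, had 0 reads in the Damaraland livers and also in the naked mole-rat livers, and was at least 2648-fold lower than in the guinea pig. Of the 9 symbols, 8 appear among the Damaraland genes of RefSeq (assembly DMR_v1.0_HiC). In heart, 5 of the 9 again had at most 10 reads in every Damaraland library. Whether the gene set used for quantification held a counterpart of each gene was not tested.

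In the guinea pig the near-absent genes were Inmt, Ywhae, Me1, Pm20d1, Slc6a11, Lepr, Nxpe4, Gpat3, Dpp6, Serpina7 and B3gnt7. Inmt, an indolethylamine methyltransferase, had 2 to 4 reads in the guinea pig libraries and 4572 to 12901 in the Damaraland libraries. Ywhae, the epsilon form of the 14-3-3 adaptor proteins, had 2 to 6 against 3937 to 7327, and Pm20d1, a secreted enzyme that makes N-acyl amino acids, 2 to 4 against 2744 to 6429. Slc6a11, a GABA transporter, had 4 to 6 reads against 2396 to 4261, and Lepr, the leptin receptor, 0 to 1 against 2768 to 4242. In heart, 5 of the 11 again had at most 10 reads in every guinea pig library. Over all tested genes, 74 had 0 reads in every guinea pig liver and were at least 38.0 to 1662-fold higher in the Damaraland mole-rat, and 15 had 0 reads in every Damaraland liver and were at least 185.8 to 4339-fold lower. The mean behind the rule on low values covers 5 Damaraland and 3 guinea pig libraries. Genes with 0 reads in the guinea pig therefore pass it at lower levels, and the counts are a description that cannot be compared.

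The 12 genes of mitochondrial DNA took 0.003% to 0.017% of the reads in the Damaraland livers and 4.04% to 4.26% in the guinea pig livers. mt-Co1, a subunit of cytochrome oxidase, had 121 to 574 reads in the Damaraland libraries and 162357 to 217724 in the guinea pig libraries. In the nuclear list of the same complexes 6 of 70 genes were called higher and 8 lower, as given above. Whether the mitochondrial genome of the Damaraland mole-rat was part of the reference used for quantification was not tested.

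Heart was used to see which liver differences were also found in a second tissue. The heart table holds 5 Damaraland and 3 guinea pig libraries, and 4 Damaraland animals and all 3 guinea pigs gave both tissues. The Damaraland hearts came from males, with replicates 2 and 5 labelled 36 months and replicates 1, 3 and 4 labelled 48 months. The guinea pig hearts came from males of 2.3 months, so species and age differ together here too. Hearts of 3 male naked mole-rats of 13 to 17 months and 3 male mice of 2 months entered the heart model. In heart 3199 of 10509 genes were called (30.4%). Among 9961 genes tested in both tissues 3494 were called in liver and 2921 in heart. Both tissues were called with the same sign in 1458 genes, 743 higher and 715 lower, which is 41.7% of the liver calls and 49.9% of the heart calls. With the sign reversed there were 187, among them Hk2 (-1.20 in liver and 3.26 in heart), Spp1 (1.61 and -2.85) and Cd79a (-2.66 and 1.17).

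Genes called in both tissues with the same sign included Ahnak (6.49 in liver and 6.44 in heart), Ywhae (7.51 and 7.32), Tpi1 (-6.998 and -7.12), Pygl (3.24 and 7.48) and Slc2a5 (3.98 and 4.19). Of the lipid synthesis genes Acaca had 3.94 in liver and 4.40 in heart, and Insig1 4.95 and 4.49. Slc6a9 (0.86 in heart), Cbr2 (0.97), Acadl (0.09), Elovl6 (-0.29) and Apoa1 (-0.92) were called in liver and not in heart, where Slc6a9, Cbr2 and Apoa1 passed the adjusted p but not the size threshold. The size of the difference between tissues was not tested, since the tables were transformed separately.

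**Figure D5:**
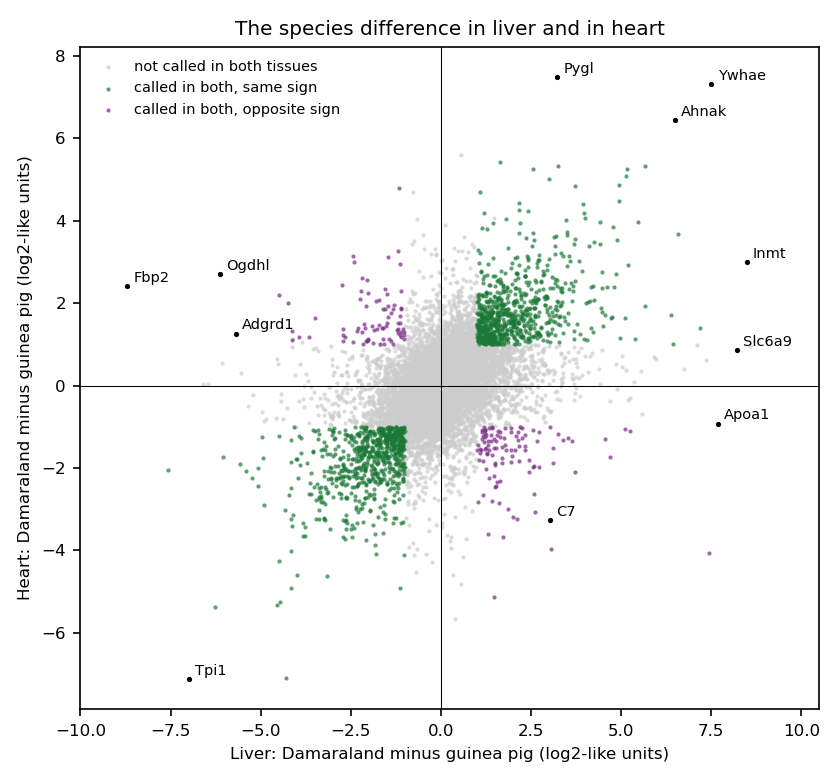
Difference between Damaraland mole-rat and guinea pig in liver (horizontal axis) and in heart (vertical axis), in log2-like units of separately transformed tables, with a point for each of the 9961 genes tested in both. Green points (1458) were called in both tissues with the same sign, purple points (187) with opposite signs, grey points were not called in both, and black points are the named genes of any kind.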

How the data were processed

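Total RNA from liver and heart was depleted of ribosomal RNA and sequenced, per the labels' protocols. Per the submitters' processing notes, the authors used cutadapt, Salmon 013.1 and DESeq2 with the build GRCm38, while how genes were matched across species is not given in the sources used here. The authors deposited log2-like variance-stabilised values per gene, 1 table per tissue, each transformed separately and together with columns of samples outside this series (26 in all, not used). Of 13928 gene identifiers 13921 had a symbol.

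The transform was inverted to obtain scaled reads and, from the step of each library, reads. All values came out whole within a tolerance of 0.01. All 14 liver libraries entered a linear model of the deposited values (limma 3.58.1, R 4.3.3), with 1 coefficient per species, a variance trend and Benjamini-Hochberg adjustment. A call needed an adjusted p under 0.05 and a difference of at least 1. Heart was fitted in the same way. voom on the recovered reads, other filters, scalings and omitted libraries were tried as alternatives. The fit was first tested on simulated data with known changes, in fewer genes than were called here. There 21% of the 2-fold and 97% of the 4-fold changes were called. Of the unchanged genes 0 were called and 8 had an adjusted p under 0.05 in limma.

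Genes were named by rule: the 12 largest differences in each direction with both means at least 1 above the table's lowest value, near-absent genes, the 2 largest called members of each list in each direction, and fixed genes. Other list members were named after their values were seen, and some genes that the rule or the lists hold are not reported here by name. The comparison, the lists and the fixed genes were chosen with earlier results of these data known. Gene names near-absent in one species were looked up in the RefSeq gene table of the Damaraland mole-rat.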

Additional observations from a re-analysis of the deposited data

Results flagged for a closer look

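In 137 groups the highest and the lowest Damaraland library were compared with the rest of the group. The groups were named genes and library measures (total reads, genes at 0 and mt- reads). They share the same 5 libraries and are not independent. In 11 groups a single library stood far from the other 4, where chance gives about 1 in 20. In 8 of the 11 it was replicate 5. Its level was 11.59 in Acadl (others 12.05 to 12.19), 12.04 in Ywhae (12.37 to 12.48), 9.11 in Sds (10.63 to 11.06), 13.26 in Ephx2 (13.83 to 14.05), 12.28 in Prdx1 (13.07 to 13.22) and 10.79 in Sdhd (11.35 to 11.56), all below the others. It was above them in Gys1, at 7.88 (6.61 to 6.80), and in Vegfa, at 10.29 (8.86 to 9.10). The remaining 3 were Elovl6 in replicate 4 at 13.21 (14.14 to 14.46), Mme in replicate 3 at 4.56 (5.10 to 5.22) and Acmsd in replicate 2 at 11.17 (11.32 to 11.37).

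For 7 of the genes named by rule every library moved one way in liver and the opposite way in heart, and the difference between tissues was not tested. Fbp2 had -8.70 in liver and 2.41 in heart, Ogdhl -6.12 and 2.71, and Adgrd1 -5.69 and 1.26. C7 had 3.03 in liver and -3.26 in heart. C2 had -1.04 and 1.37, Sord -1.20 and 1.53, and Etfa -1.40 and 1.09. Other genes given above were called with opposite signs too, by rule with libraries that overlapped in a tissue (Gpc3, 2.24 in liver and -1.27 in heart, Igfbp2, 2.72 and -1.12, and Igfbp4, 1.14 and -1.07) or outside the rule (Hk2, Spp1, Cd79a, Fmo2, -1.46 and 3.12, Dgat1, 1.004 and -1.56, and Apom, 1.59 and -1.09).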

How the results depend on the processing

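Across 23 alternatives, 99 of 135 named genes kept their direction and their side of the threshold in every one that tested them. Pairs in which a filter removed the gene were not scored. Of the 3062 scored pairs of gene and alternative 63 lost a call, 7 gained one and 10 changed sign. All sign changes were in genes not called. Leaving out 1 library at a time, differences ran from -0.0151 to 1.56 in Cyp7a1 (without guinea pig replicates 2 and 1), from -0.116 to 0.232 in Igf1, from -0.0746 to 0.282 in G6pc and from -0.483 to 0.00261 in Apoe. Igf1 had -0.105 and Apoe 0.293 under quantile normalisation, and G6pc had -0.0787 with sample weights, where Pck1 (0.948), Igfbp4 (0.931) and Mest (-0.669) were not called.

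The 4004 calls in liver became 7161 without the size threshold, 2217 when limma's treat tested against a difference of 1, and 2350 among genes above the table median, where fewer genes were tested. The 1458 calls shared with heart became 3558, 656 and 733 in the same order. Leaving out 1 library gave 3949 to 4102 liver calls and 1432 to 1468 shared calls. Counts were 4831 on log2(scaled reads + 1) and 4860 with voom. Of the calls 53.4% were higher as designed and 50.4% under quantile normalisation. With both species means at least 1 above the table's lowest value the share was 51.3%.

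A fit with the replicate number as a block (replicate block) gave 4054 calls, of which 3859 were also in the unblocked fit, and Slc7a5 (-0.975) and Gls2 (-0.949) were not called in it. Deviations of same-numbered libraries from their species means correlated at 0.043, -0.144 and 0.015, and those of differently numbered libraries at -0.287 to 0.335. The labels give no pairing of animals by number, and these correlations cannot show that there was none. Low levels limit what could be seen, since the transform holds a 2-fold change from 10 scaled reads to 0.39.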

Other observations

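The values in this paragraph were noticed in the data, follow the age labels within the Damaraland livers and carry no test. In 13 genes the 3 libraries labelled 36 months and the 2 labelled 48 months were separated by at least 1 unit, 9 higher and 4 lower at 48 months, and in 2 genes by at least 2 units. Cyp2e1 averaged 8.11 in the libraries labelled 36 months and 15.07 in those labelled 48 months, beside 17.35 in the guinea pig. Cux2, a homeobox transcription factor, averaged 4.89 and 9.45, beside 5.50 in the guinea pig. Abcc3, an exporter of conjugated bile acids and drugs, averaged 9.86 and 12.12. Tnip3 went the other way, with 8.07 and 4.95, as did the amino acid transporter Slc38a1 with 9.07 and 6.92. One of the 2 libraries labelled 48 months is the only female, and the animal of replicate 3 is labelled 48 months in heart, so that age, sex and single animals cannot be told apart here.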
